A study of Mus musculus with 6 samples.

Results

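The 10 core circadian clock genes were Arntl, Clock, Npas2, Per1, Per2, Per3, Cry1, Cry2, Nr1d1 and Dbp. They were taken by name from the array, with every probe that carries 1 of these names. All 10 genes were found, on 14 of the 39429 probes of the array, and all 10 were among the 23864 genes and other named features that could be tested. Arntl, Per1, Cry2 and Dbp had 2 probes each, and the other 6 genes had 1.

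The circadian clock is a feedback loop of transcription that runs in nearly every cell with a period of about a day. ARNTL (also called BMAL1) pairs with CLOCK or with its relative NPAS2 and switches on genes through a short DNA sequence, the E-box. Among these genes are the Per and Cry genes, whose proteins return to the nucleus and shut the activators off, and Nr1d1 and Dbp, which drive further waves of expression. In the brain the suprachiasmatic nucleus of the hypothalamus sets the phase of the other regions, and the level of most of these transcripts depends on the hour at which tissue is taken.

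RNA came from the brains of male mice on a C57BL/6N background. There were 3 samples of wild-type mice and 3 of Pla2g2e knockout mice (Pla2g2e encodes a secreted phospholipase A2), and each sample was measured on its own 1-colour array. The titles call both groups sham-operated, whereas the treatment text of every sample speaks of a temporary block of the middle cerebral artery, and the groups were taken from the titles. The part of the gene deleted in the knockout, the age of the mice, the brain region and the hour of collection are not given in the sources used here. The labels do not say whether the samples came from separate animals, so a p-value here speaks only of the spread among the 6 samples. In a piece of tissue, fewer cells of a type and less RNA per cell cannot be told apart.

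On each array 82.0 to 85.3% of the 43020 spots that are not controls were well above background and 0 were saturated. Wild-type samples 1, 2 and 3 and knockout sample 1 shared a slide, and knockout samples 2 and 3 lay on another. Pla2g2e itself has 2 probes, near the limit of detection in both groups, at -8.55, -8.65 and -9.20 against -8.47, -8.51 and -8.45 and at -7.14, -7.31 and -6.73 against -7.11, -7.94 and -7.90. Since the deleted part of the gene is not given, these probes do not check the genotype labels.

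Values are log2 signals relative to the 75th percentile of the same array, with 0 at that percentile. They are given in the order of samples 1, 2 and 3 of each group. A difference is knockout minus wild type on the log2 scale with its standard error (SE), from limma fitted to all genes. The level of a probe depends on its sequence as well as on its transcript, so levels were compared between samples and not between genes.

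None of the 10 clock genes passed the test between knockout and wild type (limma with Benjamini-Hochberg adjustment over 23864 genes, adjusted p from 0.409 to 0.935). The background was equally empty, since 0 of all genes passed (0%). The 10 differences ran from -0.24 for Dbp to 0.23 for Per1, or 1.02- to 1.18-fold in size. At an unadjusted p under 0.05, 0 of the 10 genes stood out, where 12.5% of all genes did (3.11% higher and 9.39% lower in the knockout). The lean of that background to the lower side turned with the scaling, from 743 higher and 2242 lower genes here to 2800 and 1150 after median centring and 1261 and 1316 after quantile normalization. After median centring 9 of the 10 clock genes were higher, with a median of 0.20 against 0.08 here. Under this scaling, and for the brightest probe of each gene, the 95% intervals reached no further than -0.49 on the lower side and 0.61 on the upper side. That is 1.40-fold lower and 1.53-fold higher. The intervals of the second probes of Arntl, Per1, Cry2 and Dbp reached lower, to -0.91, -0.81, -0.80 and -0.58.

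**Figure D1:**
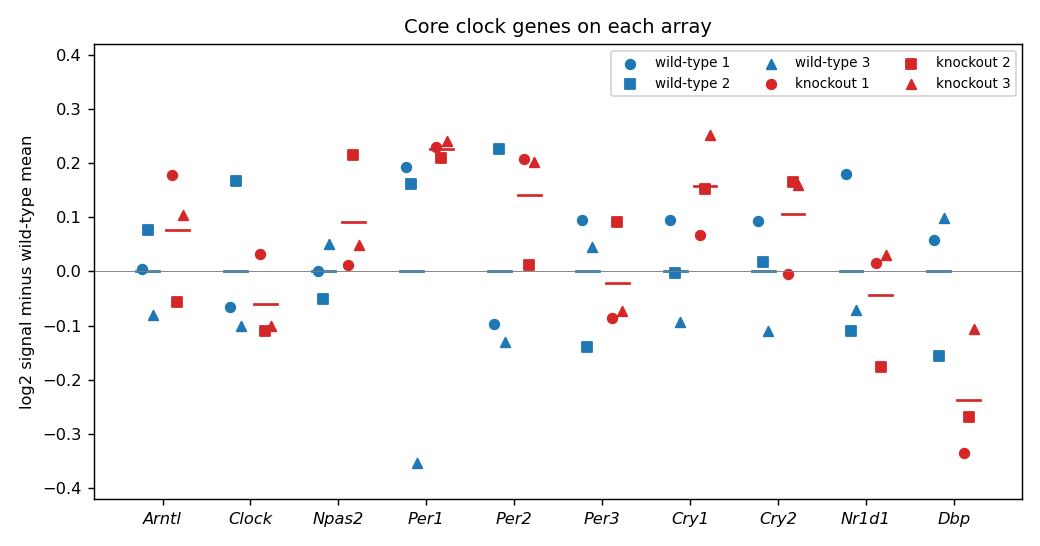
Signal of the 10 core clock genes on each of the 6 arrays, as log2 distance from the wild-type mean of the same gene (y axis), with circles, squares and triangles for samples 1, 2 and 3 of each group and bars for group means. The groups overlap for every gene but Per1, whose wild-type sample 3 lies at 3.29 against 3.80 or more on the other 5 arrays.

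Among the activators, Arntl, the partner that every active complex needs, was measured at 0.93, 1.00 and 0.85 in wild type and at 1.10, 0.87 and 1.03 in knockout. Knockout sample 2 lay within the wild-type range, and knockout samples 1 and 3 lay just above it. The means were 0.93 ± 0.08 and 1.00 ± 0.12 (SD, n = 3 each), a difference of 0.08 ± 0.09 (SE). Clock, the partner of ARNTL that also acetylates histones, stood at -0.36, -0.12 and -0.39 against -0.26, -0.40 and -0.39. Wild-type sample 2 was the highest, and the other 5 lay between -0.40 and -0.26. The difference was -0.06 ± 0.10, and it became 0.06 when arrays were centred on their median. Npas2, which takes the place of CLOCK in the forebrain, stood at -3.78, -3.83 and -3.73 against -3.77, -3.57 and -3.74. Knockout sample 2 was the highest of the 6, the other 5 spanned 0.10, and the difference was 0.09 ± 0.08. It was 0.21 after quantile normalization or median centring and 0.18 with normexp, with an unadjusted p under 0.05 in each, and 0.01 within the slide that held both genotypes. Adjusted p-values of the 3 activators were 0.732, 0.810 and 0.642 in the order named (limma, Benjamini-Hochberg).

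Among the repressors, Per1 was the member whose groups did not overlap. Per1 is the Period gene that light, neuronal activity and glucocorticoids switch on within an hour or so. It stood at 3.83, 3.80 and 3.29 in wild type and at 3.87, 3.85 and 3.88 in knockout. All 3 knockout values were above all 3 wild-type values, with wild-type samples 1 and 2 just below them and sample 3 far below. The means were 3.64 ± 0.31 and 3.87 ± 0.02, and the difference was 0.23 ± 0.16 (95% interval -0.16 to 0.61, adjusted p = 0.568 in limma after Benjamini-Hochberg). Without wild-type sample 3 it was 0.05. Groups without overlap were found for 1 of the 10 clock genes and for 19.9% of all genes (7.66% higher and 12.3% lower in the knockout, a split that turned to 5720 higher and 1320 lower genes after median centring and 2270 and 1908 after quantile normalization). For a single gene, 3 samples against 3 cannot give an exact permutation p below 0.1.

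Per2, the Period gene most needed for a sustained rhythm, stood at -1.83, -1.51 and -1.87 against -1.53, -1.72 and -1.53, with wild-type sample 2 at the top. The difference was 0.14 ± 0.12. Per3, the Period gene that is dispensable for the rhythm, stood at -4.41, -4.65 and -4.46 against -4.59, -4.42 and -4.58. The highest and the lowest of the 6 values were both wild type. Its difference of -0.02 ± 0.09 turned to 0.13 after quantile normalization, 0.10 after median centring and 0.08 after normexp background correction, so no direction could be given.

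Cry1, a cryptochrome and the strongest repressor of the activator pair, stood at -3.78, -3.87 and -3.96 in wild type and at -3.80, -3.72 and -3.62 in knockout. Knockout samples 2 and 3 were above all wild-type samples and knockout sample 1 was not. The difference was 0.16 ± 0.08 with an interval of -0.05 to 0.36. It was 0.27 after quantile normalization, 0.28 after median centring and 0.07 within the slide that held both genotypes. Cry2, its paralog, stood at 4.33, 4.26 and 4.13 against 4.24, 4.41 and 4.40, a difference of 0.11 ± 0.09 that shrank to -0.01 within that slide. Adjusted p-values of Per2, Per3, Cry1 and Cry2 were 0.643, 0.935, 0.473 and 0.625 (limma, Benjamini-Hochberg).

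Nr1d1 encodes REV-ERB alpha, a nuclear receptor that represses Arntl and so closes the loop named after its RORE binding sequence. It was measured with 1 probe of 60 bases whose ends lie 503 bases apart in the files' coordinates. The values were -0.63, -0.92 and -0.88 against -0.79, -0.98 and -0.78. Wild-type sample 1 was the highest and knockout sample 2 the lowest, and the difference of -0.04 ± 0.11 became 0.07 after median centring and 0.00146 with normexp (adjusted p = 0.885 in limma after Benjamini-Hochberg).

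Dbp encodes a PAR-bZIP factor that binds the D-box, a direct output of the E-box loop with a large daily swing in most tissues. It stood at 3.93, 3.71 and 3.97 in wild type and at 3.53, 3.60 and 3.76 in knockout. Knockout sample 3 lay above wild-type sample 2, and the other knockout samples lay below all wild-type samples. The means were 3.87 ± 0.14 and 3.63 ± 0.12, and the difference of -0.24 ± 0.10 was 1.18-fold (95% interval -0.49 to 0.01, adjusted p = 0.409 in limma after Benjamini-Hochberg). It kept its sign in all 17 alternative settings, between -0.34 and -0.12, and was -0.34 within the slide that held both genotypes. The filters, kept outlier spots and the replicate block left it unchanged, and slide as a fixed block gave the same value as that slide. The second Dbp probe starts 139 bases from the first and was read on other spots of the same arrays. It stood at 3.53, 3.19 and 3.55 against 3.04, 3.11 and 3.29, a difference of -0.28 ± 0.13. Over the 6 arrays the probes of Dbp had a correlation of 0.99 and put the 6 samples in the same order.

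The members of the loop can be sorted by phase. Per1, Per2, Per3, Nr1d1 and Dbp reach their peak near the same time of day, and Arntl, Clock, Npas2 and Cry1 reach theirs at about the opposite time (Clock with little swing in many tissues), so a shift in the hour of collection would move these arms against each other. The mean of the first arm, as log2 distance from its mean over the 6 arrays, was 0.08, -0.01 and -0.09 in wild type and 0.00, -0.03 and 0.05 in knockout. The second arm stood at -0.02, 0.01 and -0.09 against 0.04, 0.02 and 0.04. The first arm overlapped between the groups, and the second was higher in all 3 knockout samples by a narrow margin, with wild-type sample 2 and knockout sample 2 nearly level. The first arm minus the second was 0.10, -0.02 and 0.00 in wild type and -0.04, -0.05 and 0.01 in knockout, a difference of -0.05 between group means, and knockout sample 3 lay above wild-type samples 2 and 3. Within the first arm Dbp and Per1 differed in opposite directions, by -0.24 and 0.23, under every scaling tried (Per1 by -0.09 where its probes were averaged). Whether the mice were killed at the same hour was not tested, since no label gives it.

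The motifs through which the textbook loop acts were looked for in the promoters. Each motif was searched on both strands. RefSeq promoters (GRCm38.p6, 250 bases before to 50 bases after each start) were at hand for 9 of the 10 genes, all but Per2, with 13 promoters among them. The E-box CACGTG, which reads the same on both strands, was found in Cry1 and Per1 and in 7.15% of all 32851 promoters. Its variant CACGTT, shown here as AACGTG on the other strand, was found in Cry1, Cry2 and Nr1d1 and in 4.68% of all. The D-box, searched as TTATGTAA and TTACGTAA, was found at a pair of sites in Per3 and in 1.06% of all promoters. TAGGTCA, a part of the RORE, was found in Arntl and in 2.61%, and the cyclic AMP response element TGACGTCA was in none of the 13 and in 1.79% of all. None of the motifs was found in Clock, Npas2 or Dbp, and the E-box was found in a gene of each arm. The stretches below show 28 bases around the matches, written 5′ to 3′ on the strand of the gene with the matched letters in capitals, and they are shown because these letters are the ones through which the textbook loop acts. A match is a match of letters and not a measured binding site.
Per1 E-box at chr11:69098772-69098799 (+): gcacccaagtcCACGTGcagggatgtgt
Cry1 E-box at chr10:85185098-85185125 (-): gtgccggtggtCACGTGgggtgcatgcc
Cry1 E-box variant at chr10:85185117-85185144 (-): cacacttcagaAACGTGaggtgccggtg
Nr1d1 E-box variant at chr11:98775389-98775416 (-): gcacagatctcAACGTGccggctgctgg
Per3 D-box at chr4:151044853-151044880 (-): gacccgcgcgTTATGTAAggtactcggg
Arntl RORE part at chr7:113207531-113207558 (+): aggcagaaagTAGGTCAgggacggaggt

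Beside these matches, the expression differences were 0.16 for Cry1 and 0.23 for Per1, with the E-box. They were 0.11 for Cry2 and -0.04 for Nr1d1, with the variant, and -0.02 for Per3 and 0.08 for Arntl, and the signs of Nr1d1 and Per3 turned with the scaling as given above. None of these differences passed the adjusted test.

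The second probes of Arntl, Per1 and Cry2 did not follow the first probes. This was seen after the values were known and is given as a description. Each of the 3 second probes is listed under an Ensembl transcript and the first under a RefSeq mRNA, whereas both Dbp probes are listed under the same RefSeq mRNA. The probes are 60 bases long, and the first 30 bases of each are shown because the pairs read different stretches of 1 gene and gave different answers (mm9 coordinates, all 60 bases, as the files list them).
Arntl first probe, chr7:120457261-120457320: gagccattgatacaagtcaatctaccatgt
Arntl second probe, chr7:120386502-120386561: acggctgtcgctagtactgaagtatttgct
Per1 first probe, chr11:68923364-68923423: gtgttctcagctctaccctctaccaatgac
Per1 second probe, chr11:68919895-68919954: ttagtgtttcagggcagtagaggtggccgg
Cry2 first probe, chr2:92243807-92243866: tctcccacagtttgtttgtgaatatttacc
Cry2 second probe, chr2:92251417-92251476: tcctcctgagtgctggaaattcagatacga

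The second Cry2 probe stood at -1.85, -1.75 and -1.44 in wild type and at -2.15, -2.27 and -2.16 in knockout. All 3 knockout values were below all 3 wild-type values. The difference was -0.51 ± 0.12 (unadjusted p = 0.00528), and it did not pass adjustment over the 31954 probes tested (adjusted p = 0.275 in limma after Benjamini-Hochberg). It was -0.47 within the slide that held both genotypes. The first Cry2 probe, 7610 bases away, was higher by 0.11 in the knockout, and over the 6 arrays the probes of this gene had a correlation of -0.80.

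The second Arntl probe, 70.8 kb from the first and read as 22.2 to 39.3 units of processed signal, stood at -6.04, -6.39 and -5.71 against -6.37, -6.52 and -6.65. Wild-type sample 3 was the highest, and knockout sample 1 lay just above wild-type sample 2. Its difference was -0.47 ± 0.18 (unadjusted p = 0.0431, adjusted p = 0.399 in limma after Benjamini-Hochberg). It was -0.10 with normexp, -0.32 within the slide that held both genotypes and -0.30 without wild-type sample 3, and the unadjusted p was above 0.05 in each. The second Per1 probe was as dim, at 17.5 to 29.5 units, and stood at -6.18, -6.14 and -6.25 against -6.24, -6.87 and -6.67. Knockout samples 2 and 3, the arrays of the other slide, were low, and knockout sample 1 lay among the wild-type samples. The difference of -0.40 ± 0.16 shrank to -0.05 within the slide that held both genotypes and to -0.05 after normexp background correction, and was -0.58 without knockout sample 1 (adjusted p = 0.0899, limma, Benjamini-Hochberg). The cause of the gap between the slides was not tested.

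The distance between the probes of a gene did not overlap between the groups for Arntl, Per1 and Cry2. First minus second probe was 6.98, 7.39 and 6.56 against 7.47, 7.39 and 7.68 for Arntl, where wild-type sample 2 and knockout sample 2 nearly met. It was 10.02, 9.95 and 9.54 against 10.11, 10.72 and 10.56 for Per1, and 6.19, 6.00 and 5.57 against 6.38, 6.67 and 6.56 for Cry2. The gap was wider in the knockout by 0.54, 0.63 and 0.62 in these 3 genes, and by 0.04 for Dbp. With normexp the gaps of Arntl, Per1 and Cry2 came to 0.15, 0.22 and 0.52. Within the slide that held both genotypes they came to 0.50, 0.28 and 0.46, and without wild-type sample 3 to 0.33, 0.48 and 0.44. The gap was not tested, since these genes were picked for it. How often such a gap fails to overlap in other genes with several probes was not counted, so it cannot be called particular to clock genes.

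**Figure D2:**
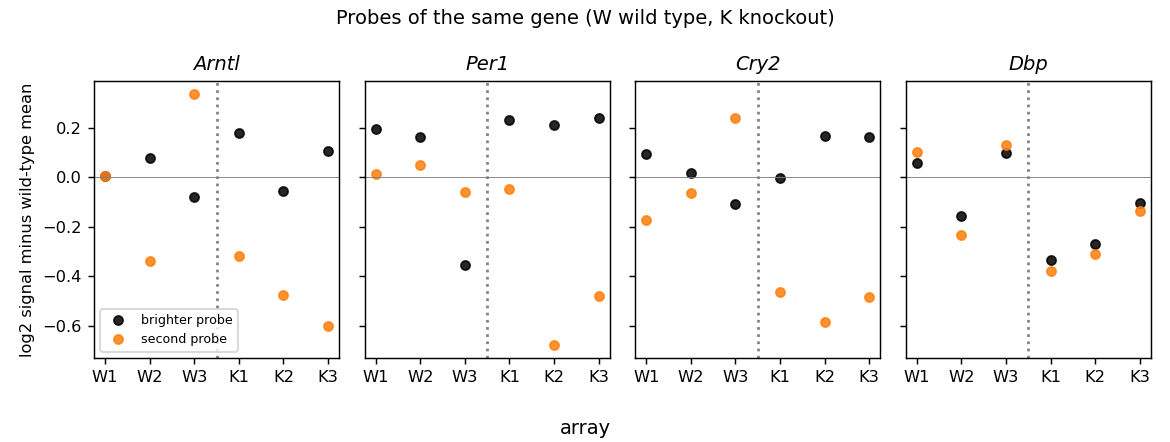
Both probes of Arntl, Per1, Cry2 and Dbp on the 6 arrays (x axis, W wild type, K knockout), as log2 distance from the wild-type mean of the same probe (y axis), with black points for the brighter probe and orange points for the second. For Dbp the probes move together on every array, and for Arntl, Per1 and Cry2 the orange points lie below the black points in all 3 knockout samples and above them in wild-type sample 3.

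Of the 14 clock probes, 2 had an unadjusted p under 0.05, both lower in the knockout (Arntl second and Cry2 second), where 12.1% of all probes did (9.03% lower). In 2 of the 14 the groups did not overlap, Cry2 second on the lower side and Per1 first on the higher side, where 19.4% of all probes did not overlap (11.9% lower). No clock probe passed adjustment and neither did any other probe (0% of 31954). Across the whole array, probes listed under Ensembl transcripts leaned lower than RefSeq probes. Their median difference was -0.03 over 2959 probes, 56.8% of them lower, against 0.00 over 23308 RefSeq probes, 50.3% of them lower. After median centring the medians were 0.09 and 0.12, with 36.0% and 25.8% lower. The 5687 probes listed under neither leaned further under the standard scaling, with a median of -0.08 and 63.3% lower. Ensembl-listed probes were also dimmer, with a median wild-type level of -3.77 against -1.63 for RefSeq probes. Within the 1155 genes that had both kinds, the Ensembl-listed probe minus the RefSeq-listed probe had a median of -0.12 and was below 0 in 68.2% of the genes, so the clock genes were not alone in this pattern. What sets the classes of probe apart was not tested.

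**Figure D3:**
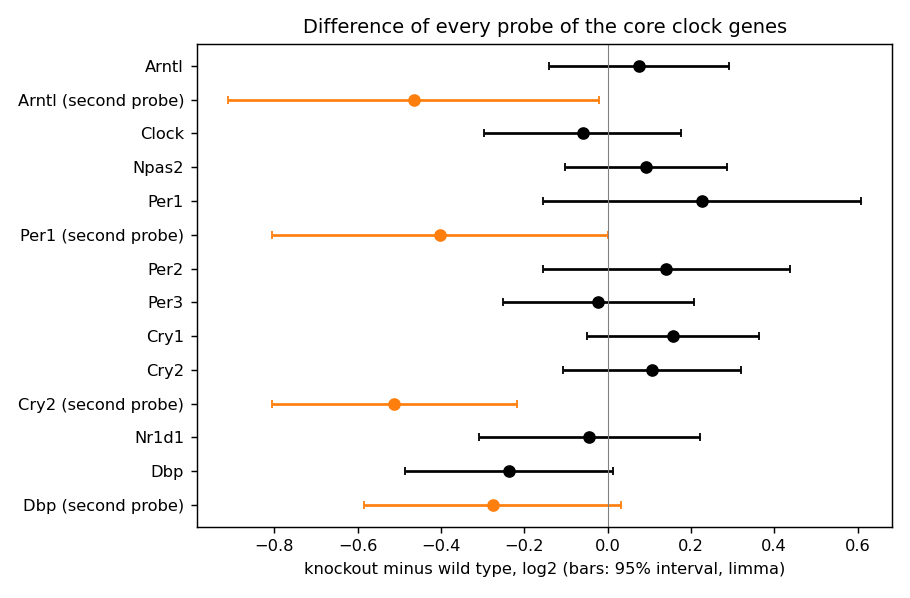
Knockout minus wild type (x axis, log2) for each of the 14 probes of the core clock genes, with 95% intervals from limma as bars. Black points are the probe that stands for each gene, and orange points are second probes, which lie at -0.47 for Arntl, -0.40 for Per1, -0.51 for Cry2 and -0.28 for Dbp.

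The 26 other genes of the clock pathway were all tested. They were listed by role, and 15 were higher and 11 lower in the knockout, with a median of 0.05 against -0.01 for all genes. None passed adjustment. At an unadjusted p under 0.05, 1 of 26 stood out, where 12.5% of all genes did, and in 5 of 26 the groups did not overlap (Nfil3, Bhlhe40 and Csnk1e higher, Arntl2 and Cipc lower), where 19.9% did. After median centring, which moves the median of all genes to 0.10, 24 of the 26 were higher, with a median of 0.17.

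Nfil3 (E4BP4), which competes with DBP for the D-box and represses there, had the largest difference of the list under the standard scaling. It stood at 1.09, 1.21 and 0.76 in wild type and at 1.42, 1.49 and 1.51 in knockout. All knockout samples were above all wild-type samples, and wild-type sample 3 was the lowest. The difference was 0.45 ± 0.13 (unadjusted p = 0.0114, adjusted p = 0.301 in limma after Benjamini-Hochberg). It was 0.32 without wild-type sample 3 and 0.40 within the slide that held both genotypes, and it was higher under each of the 17 alternatives. The filters, kept outlier spots, the mean over probes and the replicate block left the difference of Nfil3 unchanged. Its unadjusted p was 0.0892 with slide as a fixed block and 0.139 within that slide (limma), where Noct was the gene of the list under 0.05 instead. The knockout mean was thus higher for Nfil3 and lower for Dbp, whose groups overlapped, and neither difference passed the adjusted test. A link between these genes was not tested. Of the other D-box activators, Hlf differed by 0.22 ± 0.12 and Tef, on the same side as Dbp, by -0.10 ± 0.07, which became 0.02 after median centring.

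Bhlhe40 (DEC1), a repressor that competes for E-boxes, stood at 1.20, 1.08 and 0.65 against 1.33, 1.26 and 1.46. Here too wild-type sample 3 was the lowest and the groups did not overlap. The difference of 0.37 ± 0.15 was 0.21 without that sample. Cipc, a protein that inhibits CLOCK, differed by -0.11 ± 0.07, which became 0.01 after median centring, and Arntl2, the paralog of Arntl, by -0.17 ± 0.07. The difference of Arntl2 was -0.05 after median centring and 0.0025 with the mean over its probes. Csnk1e, a kinase that marks PER proteins for breakdown, differed by 0.16 ± 0.07, and its paralog Csnk1d by 0.06 ± 0.06. Among the receptors that bind the RORE, Nr1d2, the paralog of Nr1d1, differed by 0.14 ± 0.11, and among outputs Noct, a protein of the deadenylase family, by 0.02 ± 0.14. Noct was -0.02 after quantile normalization and 0.31 within the slide that held both genotypes (unadjusted p = 0.0483, limma), where knockout sample 1 at 3.45 is set against wild-type values of 3.16, 3.10 and 3.14.

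**Figure D4:**
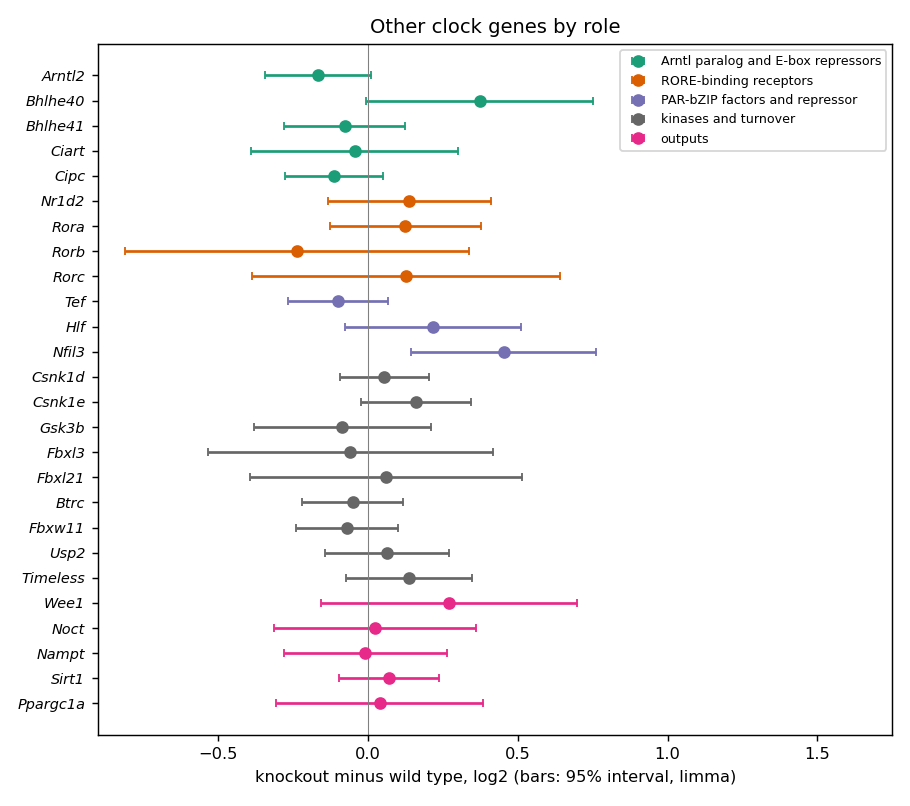
Knockout minus wild type (x axis, log2) for the 26 other clock genes, coloured by role, with 95% intervals from limma as bars. The interval of Nfil3 is the only one that leaves out 0.

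Per1 is also a gene that neurons switch on with activity, and it was set beside 8 such genes (Fos, Fosb, Junb, Egr1, Nr4a1, Arc, Npas4 and Dusp1). All 8 were tested and all 8 were higher in the knockout, with a median of 0.42, and 0 passed adjustment. Fosb, an AP-1 subunit, stood at -0.05, 0.78 and 0.04 against 1.05, 1.06 and 1.15, a difference of 0.83 ± 0.22 (adjusted p = 0.301 in limma after Benjamini-Hochberg). Nr4a1, an orphan nuclear receptor, stood at 4.48, 4.82 and 3.91 against 5.27, 4.95 and 5.15, a difference of 0.72 ± 0.24. The groups did not overlap for these 2 of the 8 genes, where 19.9% of all genes did not. The list's median, as log2 distance from the wild-type mean, was 0.13, 0.41 and -0.48 in wild type and 0.68, 0.33 and 0.41 in knockout, so wild-type sample 3 was low for the list as it was for Per1. The summed linear level of the 8 genes was 60.3 to 116 in wild type and 115 to 129 in knockout. Without that sample the list's median difference was 0.23, with 7 of 8 higher, and that of Per1 was 0.05.

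Of 6 genes that glucocorticoids induce, as they do Per1, 3 were higher and 3 lower, with a median of 0.11. The split depended on the setting, with 5 of 6 higher after median centring (median 0.23) or with slide as a fixed block (0.37) and 2 of 6 with the mean over probes (-0.03). Zbtb16, a zinc finger repressor, had the largest difference, at 2.69, 2.87 and 1.76 against 3.11, 3.20 and 3.04. Its groups did not overlap, wild-type sample 3 was the lowest as for Per1, and the difference of 0.68 ± 0.29 was 0.34 without that sample. Ddit4, an inhibitor of mTOR signalling, was the 1 of 6 with an unadjusted p under 0.05, where 12.5% of all genes were, at 3.48, 3.08 and 3.69 against 3.04, 2.74 and 2.79. Its difference of -0.56 ± 0.17 was opposite in sign to that of Per1 (adjusted p = 0.331 in limma after Benjamini-Hochberg). Its groups did not overlap either, with all knockout samples lower. Of the 6 genes, 1 higher and 1 lower had groups without overlap, where 19.9% of all genes did.

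Wild-type sample 3 also stood apart in its levels of striatum markers. The 8 striatum markers were all lower in the knockout, with a median of -0.94, and their median distance from the wild-type mean was -0.26, -0.78 and 1.11 in wild type and -1.01, -0.82 and -0.87 in knockout. Their summed linear level, relative to the 75th percentile, was 23.7 to 72.0 in wild type and 25.2 to 29.2 in knockout, with the top value in wild-type sample 3. Without that sample the median was -0.37, with 6 of 8 lower. The medians of the other marker lists were 0.00 for 6 neuron, -0.19 for 4 astrocyte, -0.26 for 4 oligodendrocyte, 0.03 for 4 microglia, 0.04 for 4 endothelium, 0.15 for 5 hippocampus and 0.14 for 5 neocortex markers. Members of each of these lists went both ways. Of the oligodendrocyte markers 1 was higher (Mbp, 0.33) and 3 were lower. Of the hippocampus markers 3 were higher and 2 lower, from -0.77 (Dsp) to 0.87 (Tdo2). The medians were -0.58 for 4 choroid plexus, -0.40 for 4 meninges, -0.42 for 4 blood leukocyte and -0.74 for 3 red blood cell markers. Every gene of these last 4 lists was lower in the knockout on average. Single arrays went against that. Knockout sample 2 had the highest summed red blood cell level of the 6 (15.2, against 3.05 to 11.7 in wild type). Wild-type sample 2 had the lowest summed choroid plexus level, 4.57 against 7.21 to 13.4 in knockout. It also had the lowest summed leukocyte level, 0.512 against 0.662 to 0.993. The choroid plexus marker Ttr differed by 0.04 without wild-type sample 3. The part of striatal tissue in the Per1 value was not tested.

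**Figure D5:**
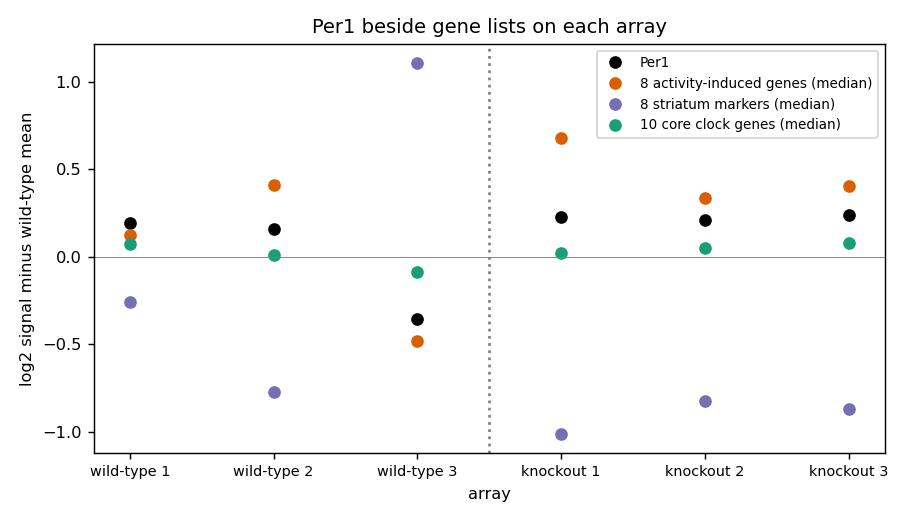
Per1 (first probe), the median of the 10 core clock genes, the median of 8 activity-induced genes and the median of 8 striatum markers on each array (x axis), as log2 distance from the wild-type mean (y axis). In wild-type sample 3 Per1 and the activity-induced genes are low, at -0.48 for the latter, and the striatum markers are high, at 1.11, while the clock median stays between -0.09 and 0.08 on all 6 arrays.

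Markers of the suprachiasmatic nucleus were checked, since that nucleus holds the master clock. Of 7 markers, 6 were tested and Six6 was not. Avp, its main peptide of the shell and also a product of other hypothalamic nuclei, stood at -1.58, -2.90 and -1.52 against -3.11, -3.73 and -2.82, a difference of -1.22 ± 0.44 (adjusted p = 0.364 in limma after Benjamini-Hochberg). Vip, the peptide of the core that neocortical interneurons make too, stood at 0.12, 0.75 and 0.16 against 0.54, 0.48 and 0.54. Of the 6, 2 were higher and 4 lower, and their summed linear level was 2.25 to 2.55 in wild type and 2.15 to 2.41 in knockout. Vip and Rgs16 were the brightest of the 6 on every array and weighed most in that sum, so it says little about Avp. The part of hypothalamic tissue in the clock genes was not tested.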

How the data were processed

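Each deposited file gives spot intensity values extracted by Agilent Feature Extraction 12.1.1.1, per the file headers and the submitters' processing notes, with the background already subtracted from the processed signal. Further upstream steps are not given in the sources used here. Gene names and mm9 coordinates are those of the files.

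The log2 processed signal minus the 75th percentile of the array, taken over spots that are not controls, was used. Spots marked as outliers were left out. A probe was tested when all arrays of 1 group or more read it well above background and each group had at least 2 values (31954 of 39429 probes), and the brightest tested probe stood for a gene. Groups were compared with limma 3.58.1 (lmFit and eBayes) in R 4.3.3 on all 6 arrays, two-sided, with Benjamini-Hochberg adjustment over 23864 genes at 0.05. The script was tested on simulated data. The number of arrays limits the precision.

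The genes and lists were chosen with earlier results of these data known. All 10 members were named, together with list genes at an unadjusted p under 0.05 and otherwise 1 gene per role by signal. List genes without overlap between groups, Hlf, Zbtb16 and the markers were named after their values were seen. Alternatives covered scaling, background (normexp, offset 50), filters, probe choice, slide, replicate number and leaving out each array.

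Same-numbered samples had correlations of -0.03, -0.14 and -0.11 in their deviations from the group means, so the numbers were not used as pairs.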

Additional observations from a re-analysis of the deposited data

How the results depend on the processing

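In all 17 alternatives 0 core clock genes passed adjustment (lowest adjusted p = 0.262, Dbp without wild-type sample 2, limma), and 148 of 170 differences kept their sign. The filters, kept outlier spots and the replicate block left every core difference unchanged, so these settings were no separate check of the sign. The mean over probes left genes with 1 probe unchanged. Slide as a fixed block gave the same differences as the mixed slide. Core genes at an unadjusted p under 0.05 numbered 0, and 3 after quantile normalization or normexp (Cry1, Dbp, Npas2). They numbered 2 after median centring (Cry1, Npas2) and 1 with the mean over probes. With every probe tested they numbered 2 (second probes of Arntl and Cry2), and 0 to 2 with 1 array left out. All genes at that p were 743 higher and 2242 lower of 23864, and 1261 and 1316 after quantile normalization. They were 1231 and 1156 with normexp, 2800 and 1150 after median centring and 733 and 2282 with the mean over probes. Without wild-type sample 2 they were 794 and 2716. They were 936 and 1695 without wild-type sample 1, 879 and 2500 with slide as a random block and 275 and 1034 with slide as a fixed block. These counts are also the background of the other clock genes below, in the settings named. Core genes without overlap numbered 1, and 3 after quantile normalization or normexp, 4 after median centring and 2 with every probe. They numbered 3 within the mixed slide and 2 to 4 with 1 array left out. All genes without overlap were 1828 higher and 2927 lower of 23864, and 2270 and 1908 after quantile normalization. They were 2239 and 1881 with normexp and 5720 and 1320 after median centring. Within the mixed slide, which holds 1 knockout array, they were 4440 and 6800. Without knockout sample 1 they were 3975 and 5000. Other clock genes at an unadjusted p under 0.05 numbered 1, and came to 5 after median centring, 2 with normexp, the mean over probes, every probe or slide as a random block, and 1 to 4 with 1 array left out. With slide as a fixed block or within the mixed slide it was 1, Noct in place of Nfil3. All genes passing adjustment numbered 0, and 0 to 76 with 1 array left out (76 without knockout sample 1).

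The sign reversed with the mean over probes for Arntl (-0.19), Per1 (-0.0881) and Cry2 (-0.20), since the second probes are lower. It reversed after median centring for Clock (0.0586), Per3 (0.0962) and Nr1d1 (0.0750), after quantile normalization for Per3 (0.13) and with normexp for Per3 (0.0830) and Nr1d1 (0.00146). With slide as a fixed block or within the mixed slide it reversed for Clock (0.0317), Cry2 (-0.00554) and Nr1d1 (0.0157). With 1 array left out the ranges were -0.110 to 0.0234 for Clock, -0.0918 to 0.0251 for Per3 and -0.0982 to 0.0469 for Nr1d1. The cause of these reversals was not tested beyond the probes averaged. With the replicate number as a block 0 core genes passed adjustment. With that block the unadjusted p of the second Arntl probe went from 0.0431 to 0.0653 (limma). At an unadjusted p under 0.05, activity genes went from 2 to 3 of 8 and higher glucocorticoid genes from 0 to 2 of 6. All genes at that p were 559 higher and 2003 lower of 23864 with the block, and 743 and 2242 without it. The settings without 1 array leave a group with 2 samples. With 3 arrays a group, limma left an interval of 0.19 to 0.38 on either side of each core difference, for the brightest probe under the standard scaling.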

Other observations

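Among 3946 named genes with an SD of at least 0.3 over the 6 arrays, the genes whose values ran most like the mean of Per1, Per2, Per3, Nr1d1 and Dbp were Slc2a9 (r = 0.96), Sytl2 (0.96), Cfap58 (0.93), Gm30219 (0.92) and Pttg1ip2 (0.90). The most opposite were 4933422A05Rik (-0.97), H3c15 (-0.93), Nnmt (-0.92), Lpar2 (-0.91) and Tmem82 (-0.90). Sytl2, a synaptotagmin-like protein of vesicle traffic, stood at 1.37, 1.00 and 0.48 in wild type and at 1.16, 0.98 and 1.28 in knockout, with wild-type sample 3 lowest. H3c15, a histone H3 gene, stood at -0.87, -0.52 and 0.12 against -0.55, -0.48 and -0.64, with the same sample highest. These are descriptions over 6 arrays that share slides and scaling.

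The lean of Ensembl-listed probes against RefSeq-listed probes of the same gene kept its sign in every setting tried on it. The median was -0.08 after quantile normalization, -0.03 with normexp, -0.11 within the slide that held both genotypes and -0.08 without wild-type sample 3, against -0.12 under the standard scaling.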
